A study of Mus musculus with 8 samples.

Results

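The genes described here encode albumin and 9 further plasma proteins that the liver secretes at all times: Alb, Ttr, Rbp4, Ahsg, Gc, Ambp, Fetub, Afm, Azgp1 and Serpina7. They were taken by symbol, each matched exactly 1 of the 56077 rows of the count table, and all 10 passed the filter on low counts. Ribosomal RNA-depleted total RNA was sequenced from livers of C57BL/6 mice aged 6 months, killed in the fed state in the early morning. The heterozygous group (4 libraries, H11, H12, H15 and H75) carried 1 floxed allele, titled eIF2α flox/+ and given as Eif2a flox/+ in the genotype label, and the wild-type group (4 libraries, W32, W33, W76 and W90) is the control. The α subunit of translation initiation factor eIF2 is encoded by Eif2s1, while Eif2a is also the symbol of a different gene. The labels name no recombinase for the floxed allele, and their growth protocol calls the animals of both groups wild-type. Litter and cage are not given, so p-values here measure the spread between these samples only. The question is whether the transcripts of these proteins differ between the genotypes.

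Hepatocytes make most of the protein of blood plasma and release it through the endoplasmic reticulum and Golgi without storing it. Several of these proteins are carriers: albumin binds fatty acids and bilirubin, transthyretin and thyroxine-binding globulin bind thyroid hormone, and retinol-binding protein and vitamin D-binding protein each carry a vitamin. Albumin, transthyretin, retinol-binding protein and fetuin-A are known as negative acute phase proteins, whose plasma levels decline in inflammation while those of serum amyloid A and haptoglobin climb.

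Promoter windows of 300 bases (250 before the transcript start and the rest after it, RefSeq, GRCm38.p6) are shown for the most abundant of these transcripts, Alb, and for the genes with the lowest and the highest fold of the 10, Serpina7 and Ahsg. The Alb window is chr5:90460620-90460919 on the plus strand, that of Serpina7 is chrX:139085187-139085486 on the minus strand, and that of Ahsg is chr16:22891765-22892064 on the plus strand. Capitals mark matches, on either strand, to 6 short motifs listed after the sequences.
Alb: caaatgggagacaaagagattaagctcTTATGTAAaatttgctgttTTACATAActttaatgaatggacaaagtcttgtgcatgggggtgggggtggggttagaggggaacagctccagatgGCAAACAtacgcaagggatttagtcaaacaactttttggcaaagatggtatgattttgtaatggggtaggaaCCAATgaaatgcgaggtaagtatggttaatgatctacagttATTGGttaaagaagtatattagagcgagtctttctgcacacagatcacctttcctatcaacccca
Serpina7: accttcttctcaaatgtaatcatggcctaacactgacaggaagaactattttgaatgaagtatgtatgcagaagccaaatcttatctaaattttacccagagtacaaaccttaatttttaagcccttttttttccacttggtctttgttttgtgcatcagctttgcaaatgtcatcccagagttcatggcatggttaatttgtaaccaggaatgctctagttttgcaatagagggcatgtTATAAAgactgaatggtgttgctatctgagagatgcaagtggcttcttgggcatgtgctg
Ahsg: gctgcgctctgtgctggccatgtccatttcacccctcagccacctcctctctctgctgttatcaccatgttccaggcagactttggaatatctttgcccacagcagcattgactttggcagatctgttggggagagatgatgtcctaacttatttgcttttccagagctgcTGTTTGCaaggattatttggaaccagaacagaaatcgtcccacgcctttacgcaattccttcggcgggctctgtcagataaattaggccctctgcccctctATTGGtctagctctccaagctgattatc

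The motifs searched, on both strands, were TTANGTAA (the core of elements bound by DBP and related factors), CCAAT (bound by NF-Y among others), TGTTTNC (bound by FOXA factors), CAAAGTCCA (HNF4), TATAAA and TTCNNNGAA (STAT factors). No match in the 3 printed windows overlapped another. The RefSeq start of Alb lies 27 bases before the GENCODE start of the gene, and that of Ahsg lies 738 bases after it. TTANGTAA matched at -223 to -216 and at -204 to -197 of Alb, counted from the RefSeq start, and is in 2.32% of all 32851 windows. Serpina7 had TATAAA at -10 to -5. Ahsg had TGTTTGC at -79 to -73, a match to the FOXA motif, which is in 20.5% of all windows. Of the 10 genes, 9 had windows, 12 in all. CCAAT (37.4% of all windows) was found in those of 8 genes, TATAAA (13.6%) in those of 4 genes, and CAAAGTCCA (0.475%) and TTCNNNGAA (8.3%) in none of the 12. A match is a run of letters and was not tested as a binding site.

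Library totals were 22177979 to 28564357 counts in heterozygous livers and 25626355 to 27799097 counts in wild-type livers. Eif2s1, which encodes eIF2α, was at 20.5 to 25.1 CPM (counts per 1e6 reads, TMM-scaled) in heterozygous libraries. In wild-type libraries it was at 28.4 to 32.8 CPM, without overlap, which held for 2.32% of all genes in that direction. Its fold was 0.737 and did not pass over all genes (adjusted p = 0.315, edgeR). One heterozygous library, H15, differed from the others of its group: the median of 29 positive acute phase genes, relative to the wild-type mean on the log2 scale, was 0.014 in H15 and 0.56 to 0.99 in H11, H12 and H75, against -0.080 to 0.083 in wild-type libraries. Fold changes of the 10 genes without H15 are plotted beside those with it, and the text gives them for Alb, Serpina7 and Ahsg. Ddx3y, on the Y chromosome, was at 35.1 to 56.9 CPM in heterozygous and at 44.0 to 56.8 CPM in wild-type libraries, and Xist was at most 0.1204 CPM in heterozygous and 0.424 CPM in wild-type libraries, given here because Serpina7 is X-linked. These were looked at after their values were seen.

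Alb was the most abundant transcript per length in every library among rows with a known length. The part of the counts taken by the 10 genes together overlapped between the genotypes. Alb took 6.82% (H11), 6.36% (H12), 8.15% (H15) and 6.21% (H75) of all counts in heterozygous livers. In wild-type livers it took 7.52% (W32), 7.77% (W33), 5.89% (W76) and 8.49% (W90). The ranges overlapped almost wholly, and the highest and the lowest share were both from wild-type mice. The 10 genes summed to 9.07% ± 0.834 of counts in heterozygous and 9.46% ± 1.29 in wild-type livers (SD, n = 4 each), a difference of -0.383 percentage points that is smaller than either SD. Without H15 the difference was -0.792 percentage points. The 9 genes other than Alb summed to 2.19% ± 0.104 in heterozygous and 2.04% ± 0.195 in wild-type livers. Alb made up 72.8 to 79.1% of the sum in heterozygous and 76.6 to 79.0% in wild-type libraries.

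**Figure D1:**
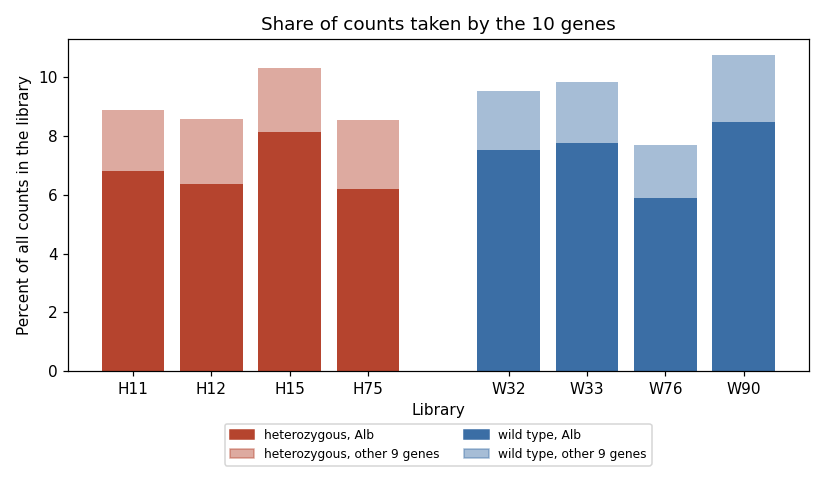
Percent of all counts in each library (y axis) taken by Alb (dark) and by the other 9 genes together (pale), with 1 bar per library, heterozygous in red and wild type in blue. Bars run from 8.53 to 10.3% in heterozygous libraries and from 7.69 to 10.8% in wild-type libraries, so the genotypes overlap.

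Levels of different genes were compared per length, as TPM (counts per length, scaled to a fixed total) from the counts and the gene lengths in the authors' deposited table. Alb was at 46834 to 68244 TPM in heterozygous and 47629 to 69153 TPM in wild-type libraries. Ttr was second of the 10 in every library, at 6237 to 7370 TPM in heterozygous and 5841 to 8084 TPM in wild-type libraries. Ahsg and Gc took places 3 and 4: Ahsg was above Gc in H11, H12 and H75 and below it in H15, W32, W33 and W76, while in W90 Ahsg was above. Rbp4 was above Ambp in all libraries but W32. Azgp1, Fetub, Afm and Serpina7 kept places 7 to 10 in all 8 libraries. Serpina7 stood far below the rest, at 7.64 to 27.9 TPM in heterozygous and 21.5 to 47.0 TPM in wild-type libraries, which placed it between 2855 and 5792 in the order of all rows in heterozygous and between 1856 and 3273 in wild-type libraries. The ranges of Ahsg and Gc, and those of Rbp4 and Ambp, overlapped over libraries.

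Of the 10 genes, 7 had a higher mean and 3 a lower mean in heterozygous livers, and none passed edgeR's quasi-likelihood test at an adjusted p under 0.05, where 0% of 14261 tested genes passed. At an unadjusted p under 0.05 there were 3 of 10, against 9.34% of all genes: Ahsg and Fetub were higher (2 of 10, against 4.9% of all genes) and Serpina7 was lower (1 of 10, against 4.44% of all genes). Groups overlapped for all 10 genes, while 4.38% of all genes separated fully. The median log2 fold change of the 10 was 0.12, against 0.0051 over all tested genes. DESeq2 called 1 of the 10, Serpina7, against 1.12% of the genes it gave an adjusted p, and limma-voom called 0, against 0% of all genes. Without H15, edgeR called Serpina7 alone among the 10, against 1.74% of all genes in either direction and 0.889% in the lower direction, and 4 of the 10 had an unadjusted p under 0.05, against 16% of all genes.

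**Figure D2:**
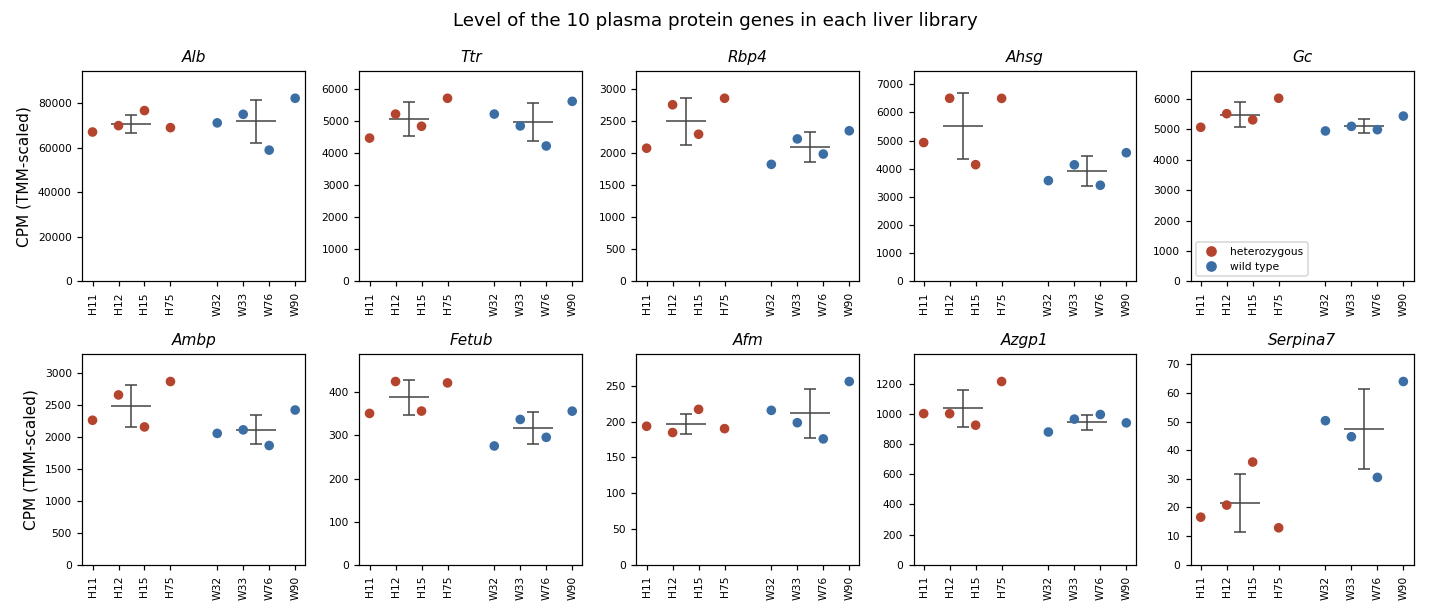
CPM (y axis, TMM-scaled, from 0) of each of the 10 genes in the 4 heterozygous libraries (red, left) and the 4 wild-type libraries (blue, right), with the group mean and SD as a bar. Alb has means of 70683 CPM in heterozygous and 71838 CPM in wild-type livers, while Serpina7 has 12.9 to 35.9 CPM in heterozygous and 30.5 to 64.0 CPM in wild-type libraries, which overlap through H15 and W76.

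The genes of the albumin family, which lie on chromosome 5, had overlapping groups, and none passed the test. Alb (ENSMUSG00000029368, plus strand, 90460897 to 90476602 of GRCm38) was at 67071, 69941, 76694 and 69025 CPM in H11, H12, H15 and H75, against 71169, 75012, 58949 and 82221 CPM in W32, W33, W76 and W90. Every heterozygous library lay inside the wild-type range. The log2 fold change was -0.023 (SE 0.14, adjusted p = 0.9751, edgeR), and the 95% confidence interval of the fold ran from 0.788 to 1.23. Without H15 the log2 fold change was -0.064, and without W90 it was 0.046, so its sign rests on single libraries.

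Afm encodes afamin, a carrier of vitamin E, and its gene lies downstream of Alb with Afp between them. Afm was at 193, 185, 217 and 190 CPM in H11, H12, H15 and H75, and at 216, 198, 176 and 256 CPM in W32, W33, W76 and W90. The heterozygous values again lay inside the wild-type range, and edgeR gave a log2 fold change of -0.11 with an SE of 0.12 and an adjusted p of 0.809. Exons of Afm overlap Gm42109 on the other strand, which was at most 0.0803 CPM in heterozygous and 0.378 CPM in wild-type libraries. Afp, the fetal albumin relative, averaged 0.805 ± 0.094 CPM in heterozygous and 1.03 ± 0.361 CPM in wild-type livers (SD, n = 4 each). Gc encodes the vitamin D-binding protein, which also takes up actin released from cells, and lies about 1003 kb before Alb with 5 protein-coding genes between. Gc was at 5065, 5511, 5309 and 6018 CPM in H11, H12, H15 and H75, and at 4944, 5096, 4986 and 5433 CPM in W32, W33, W76 and W90. H12 and H75 exceeded every wild-type library, and the log2 fold change was 0.098 (SE 0.10, adjusted p = 0.796, edgeR).

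Among the 9 genes, Afm had the smallest relative spread of its ratio to Alb in heterozygous livers. It had 2.64 to 2.88 reads per 1000 reads of Alb in heterozygous and 2.64 to 3.11 in wild-type libraries, a ratio that does not depend on the scaling of libraries. The coefficient of variation of this ratio was 3.8% in heterozygous and 6.98% in wild-type livers, against 9.63 to 40.2% in heterozygous and 5.11 to 18.0% in wild-type livers for the other 8 genes, of which Ttr, Ahsg and Ambp varied less than Afm in wild-type livers. By the root mean square difference of centred log2 CPM over the 8 libraries, Afm was at place 51 of 7361 genes in likeness to Alb, Ttr at 321, Gc at 744 and Serpina7 at 7171. The 5 genes nearest to Alb were Chd4, Sephs1, Cd47, Slc6a13 and Ostf1, with differences of 0.034 to 0.051. Within each library, all genes were scaled by the same factor, and that factor differed between libraries.

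Among the carriers of thyroid hormone and retinol, Serpina7 had the largest difference of the 10 genes. Serpina7 (ENSMUSG00000031271, X chromosome, minus strand, 139079257 to 139085236 of GRCm38) encodes thyroxine-binding globulin, a serpin that carries thyroid hormone and does not inhibit proteases. It was at 16.6, 20.8, 35.9 and 12.9 CPM in H11, H12, H15 and H75, and at 50.3, 44.7, 30.5 and 64.0 CPM in W32, W33, W76 and W90. H11, H12 and H75 lay below every wild-type library and H15 lay inside the wild-type range. These values rest on 414, 541, 845 and 258 reads in the heterozygous libraries and 1478, 1252, 792 and 1693 reads in the wild-type libraries. The log2 fold change was -1.13 (SE 0.31), a fold of 0.455 with a 95% confidence interval from 0.281 to 0.738. It did not pass over all genes (adjusted p = 0.376, edgeR), whereas DESeq2 gave an adjusted p of 0.0249 and limma-voom one of 0.418. Without H15, the heterozygous library nearest to the wild-type values, the log2 fold change was -1.49 (SE 0.25, adjusted p = 0.0262, edgeR). Leaving that library out widens the difference by construction, so this p-value is no separate support. Over 22 alternative settings, including a looser threshold on the same fit, the log2 fold change stayed negative, from -1.49 to -0.957. Adjusted p ran from 2.17e-07 (DESeq2 without H15, added after seeing the data) to 0.732 (edgeR without H12). Among the settings that kept H15, only DESeq2 passed. Relative to albumin the groups did not overlap. Serpina7 had 0.187 to 0.468 reads per 1000 Alb reads in heterozygous and 0.517 to 0.778 in wild-type libraries. In CPM the groups overlapped through H15 and W76, where Alb was at 76694 and 58949 CPM, the latter the lowest of all libraries. The ratio was chosen after its values were seen and not tested. The share of all genes that separate relative to Alb was not counted.

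**Figure D3:**
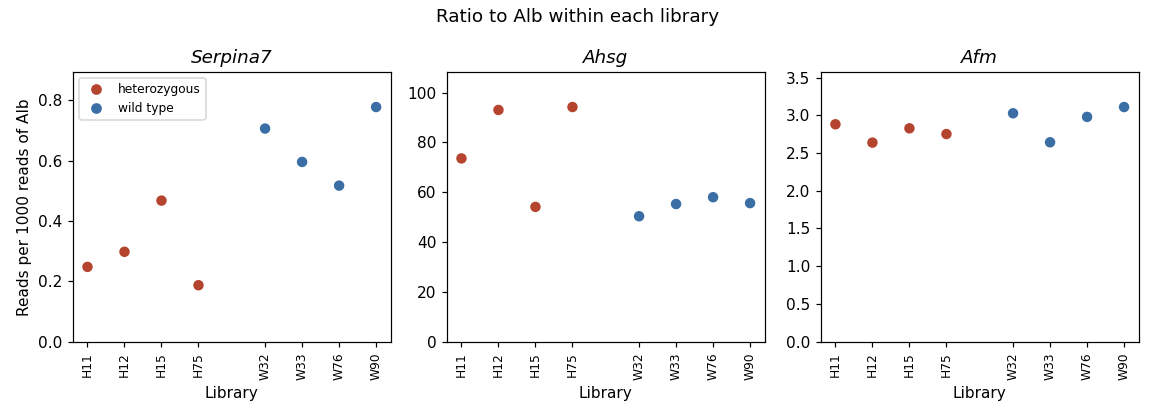
Reads of Serpina7, Ahsg and Afm per 1000 reads of Alb (y axes, from 0) in each library, heterozygous in red on the left and wild type in blue on the right. Serpina7 ratios do not overlap between genotypes, unlike its CPM, but the ratio was chosen after its values were seen and was not tested. Ahsg overlaps through H15 at 54.1, and Afm stays between 2.64 and 3.11.

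Ttr and Rbp4, whose proteins circulate as a complex that carries retinol, showed smaller differences. Ttr encodes transthyretin, which also binds thyroxine, and was at 4461, 5207, 4830 and 5700 CPM in H11, H12, H15 and H75, against 5208, 4839, 4215 and 5604 CPM in W32, W33, W76 and W90. The groups overlapped nearly in full, where edgeR gave a log2 fold change of 0.024 with an SE of 0.13 and an adjusted p of 0.970, and a 95% confidence interval of the fold from 0.834 to 1.24. With library totals as the scaling its log2 fold change was -0.071. Rbp4 encodes retinol-binding protein and was at 2073, 2749, 2291 and 2851 CPM in H11, H12, H15 and H75, against 1822, 2218, 1983 and 2345 CPM in W32, W33, W76 and W90. H12 and H75 exceeded every wild-type library, and the fold of 1.19 had a 95% confidence interval from 0.965 to 1.47 (adjusted p = 0.603, edgeR). Thus Ttr and Rbp4, partners in plasma, had overlapping groups and neither passed the test.

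Ahsg, which encodes fetuin-A, an inhibitor of soft tissue calcification and of the insulin receptor kinase, had the highest fold of the 10 genes. Ahsg (ENSMUSG00000022868, chromosome 16, plus strand, 22891277 to 22899449 of GRCm38) was at 4932, 6504, 4147 and 6500.0 CPM in H11, H12, H15 and H75, and at 3581, 4142, 3416 and 4570 CPM in W32, W33, W76 and W90. H11, H12 and H75 exceeded every wild-type library, and H15 lay between W33 and W90. The log2 fold change was 0.49 (SE 0.17, unadjusted p = 0.0167, adjusted p = 0.457, edgeR), a fold of 1.41 with a 95% confidence interval from 1.08 to 1.83. Without H15 it was 0.61 (adjusted p = 0.0847, edgeR), and DESeq2 without H15 gave an adjusted p of 0.00239. H15 had the lowest Ahsg of the heterozygous libraries, so leaving it out widens the difference by construction. Per 1000 reads of Alb, Ahsg had 73.5, 93.0, 54.1 and 94.2 reads in H11, H12, H15 and H75, against 50.3 to 58.0 in wild-type libraries. Exons of Ahsg overlap Gm30505 on the other strand, which was at 0.154 to 0.467 CPM in heterozygous and 0.231 to 0.680 CPM in wild-type libraries.

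Fetub, the gene next to Ahsg, encodes fetuin-B, which inhibits ovastacin in the oocyte coat. Fetub was at 351, 425, 357 and 422 CPM in H11, H12, H15 and H75, and at 276, 337, 296 and 357 CPM in W32, W33, W76 and W90. H12 and H75 exceeded the highest wild-type library clearly and H15 by less than the last printed digit, and H11 exceeded the other 3 wild-type libraries. The fold was 1.23 with a 95% confidence interval from 1.03 to 1.47 (unadjusted p = 0.0276, adjusted p = 0.482, edgeR). Ahsg and Fetub lie 18.9 kb apart, followed by Hrg 11.3 kb further on and then by Kng2 and Kng1, with no other protein-coding gene between them, and these 5 encode proteins of the cystatin family. The 3 further genes were looked at after their values were seen. Hrg, histidine-rich glycoprotein, averaged 705 ± 71.3 CPM in heterozygous and 585 ± 31.2 CPM in wild-type livers (SD, n = 4 each). Its groups did not overlap, which held for 2.06% of all genes in this direction, and its fold was 1.20 (adjusted p = 0.479, edgeR). The kininogen genes Kng2 and Kng1 had folds of 0.983 and 1.07 with overlapping groups (adjusted p = 0.965 and 0.782, edgeR). The folds of these neighbours were not compared with each other by a test.

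Ambp and Azgp1 also had higher means in heterozygous livers without passing the test. Ambp encodes a precursor that is cut into α1-microglobulin and bikunin, the light chain of the inter-α-trypsin inhibitors. It was at 2262, 2659, 2158 and 2869 CPM in H11, H12, H15 and H75, and at 2056, 2112, 1866 and 2423 CPM in W32, W33, W76 and W90, with H12 and H75 above every wild-type library (log2 fold change 0.23, SE 0.13, adjusted p = 0.616, edgeR). Azgp1 encodes zinc-α2-glycoprotein, a lipid-mobilising protein with the fold of MHC class I. It was at 1002, 1002, 925 and 1215 CPM in H11, H12, H15 and H75, and at 880.0, 965, 996 and 941 CPM in W32, W33, W76 and W90 (log2 fold change 0.13, SE 0.11, adjusted p = 0.732, edgeR). For Azgp1 only H75 stood clear of the wild-type libraries, since H11 and H12 exceeded W76 narrowly.

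**Figure D4:**
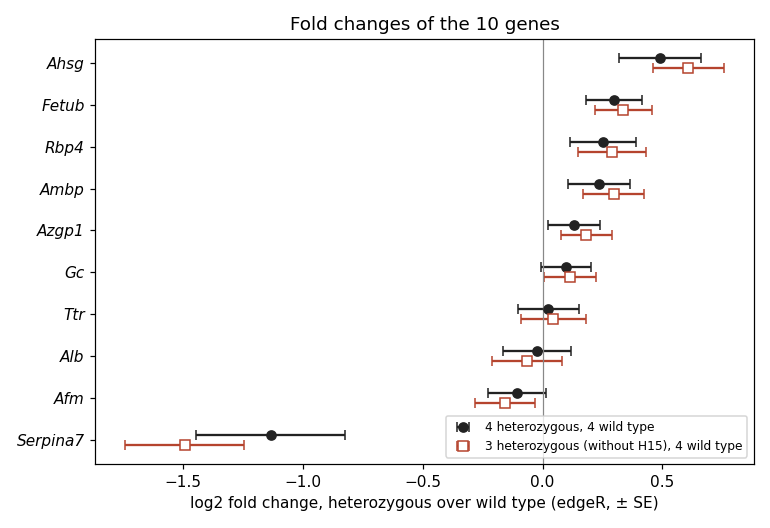
Log2 fold change of each gene, heterozygous over wild type (x axis, edgeR, bars are SE), with all libraries (black circles) and without H15 (open red squares). Serpina7 lies at -1.13 and -1.49 and Ahsg at 0.49 and 0.61, while Alb and Ttr lie within 1 SE of 0 in both.

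In GRCm38, Afm lies at 90518932 to 90553543 of chromosome 5, plus strand, and Gc at 89417522 to 89457898 of the same chromosome, minus strand. Fetub lies on chromosome 16, plus strand, at 22918334 to 22939778, Rbp4 on chromosome 19, minus strand, at 38116629 to 38125281, Ambp on chromosome 4, minus strand, at 63143275 to 63154799, and Azgp1 on chromosome 5, plus strand, at 137981520 to 137990233.

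Across libraries, H12 and H75 exceeded every wild-type library for the most genes in CPM. In CPM, H12 and H75 both exceeded every wild-type library for 6 of the 10 genes (Rbp4, Ahsg, Gc, Ambp, Fetub and Azgp1). As plain shares of counts, without TMM factors, this held for 3 (Rbp4, Ahsg and Fetub), since those libraries had the lowest TMM factors, 0.910 and 0.900 against 1.02 and 1.06 in H11 and H15 and 0.9997 to 1.06 in wild-type libraries. H15 exceeded every wild-type library in CPM for Fetub alone but by share of counts for 3 genes (Rbp4, Gc and Fetub), and was below all of them in CPM for none. All heterozygous libraries but H15 were below every wild-type library for Serpina7 and for no other of the 10.

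**Figure D5:**
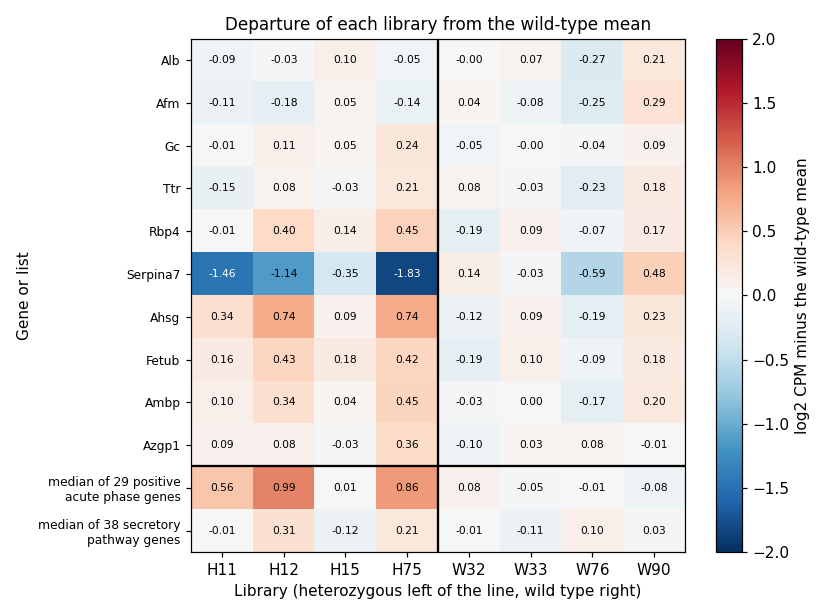
Log2 CPM of each gene minus its wild-type mean (colour and printed value) in each library (columns), heterozygous left of the line and wild type right, with the medians of 29 positive acute phase genes and 38 secretory pathway genes below. Ahsg is at 0.74 in H12 and H75, where the acute phase median is 0.99 and 0.86, and both are near 0 in H15, at 0.088 and 0.014.

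The negative acute phase proteins were set beside a list of positive acute phase genes. All 29 positive acute phase genes had a higher mean in heterozygous livers, with a median log2 fold change of 0.65. Without H15 this median was 0.79. H15 was set apart by its low median over these same genes, so leaving it out raises the value by construction. Of the 29 genes, 21 had an unadjusted p under 0.05, against 4.9% of all genes, while 0 passed over all genes with edgeR. Socs3, an inhibitor of cytokine signalling, averaged 33.6 ± 25.7 CPM in heterozygous and 2.80 ± 1.26 CPM in wild-type livers (SD, n = 4 each). Saa1, of the serum amyloid A family, was at 20.9 to 601 CPM in heterozygous and 10.9 to 32.3 CPM in wild-type libraries, with H15 inside the wild-type range. Saa2 and Lcn2 had folds of 12.4 and 6.08. In H12 and H75, the libraries with the highest acute phase medians, Alb was at 69941 and 69025 CPM, inside the wild-type range, and Ahsg and Rbp4 were above it. Over all libraries Alb, Ttr, Rbp4 and Ahsg had folds of 0.984, 1.02, 1.19 and 1.41, and none of the 4 passed the test. Serpina7 was lowest in H75 and H11.

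Other constitutive plasma protein genes, a list of 31 of which 29 were tested, lay close to the 10 described here. Their median log2 fold change was 0.10, with 23 higher and 6 lower means, and at an unadjusted p under 0.05 there were 7 with a higher and 1 with a lower mean, against 4.9% and 4.44% of all genes, while edgeR called 0 over all genes. Apom, the apolipoprotein that carries sphingosine-1-phosphate, averaged 174 ± 34.7 CPM in heterozygous and 107 ± 31.3 CPM in wild-type livers (SD, n = 4 each). Cpn2, a subunit of carboxypeptidase N, and Gpld1, a phospholipase that cuts lipid anchors of proteins, had folds of 1.22 and 1.18, and like Apom separated the groups fully, which 2.06% of all genes did in this direction. Agt, angiotensinogen, had a fold of 1.28 with overlapping groups. The gene that was lower was Bche, butyrylcholinesterase, at 54.8 to 83.1 CPM in heterozygous and 77.9 to 135 CPM in wild-type libraries. Serpina6, the corticosteroid-binding relative of Serpina7, averaged 100.4 ± 31.3 CPM in heterozygous and 128 ± 35.8 CPM in wild-type livers with overlapping groups, and was, like Bche, named after its values were seen.

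Transcription factors of the albumin promoter and of hepatocytes had a median log2 fold change of -0.036 over 24 tested genes (-0.16 without H15). At an unadjusted p under 0.05, 5 were higher and 0 lower, against 4.9% higher and 4.44% lower of all genes, and edgeR called 0 over all genes. Cebpd and Cebpb, C/EBP factors known to be induced in the acute phase, had folds of 1.99 and 2.29. Foxa3 averaged 54.8 ± 25.8 CPM in heterozygous and 28.7 ± 7.85 CPM in wild-type livers, and Nfil3, a repressor that binds the same elements as DBP, 70.7 ± 17.1 CPM in heterozygous and 48.7 ± 2.85 CPM in wild-type livers (SD, n = 4 each). Hnf4a was at 538 to 714 CPM in heterozygous and 495 to 536 CPM in wild-type libraries, with a fold of 1.23 (adjusted p = 0.458, edgeR). Hnf4a and Cebpd, 2 of the 24 genes, did not overlap between groups, against 2.06% of all genes in this direction. For Hnf4a the nearest libraries were H15 at 538 CPM and W32 at 536 CPM. Cebpa and Dbp had folds of 0.840 and 0.978 with overlapping groups, and Dbp was at most 1.10 CPM in any library.

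Genes of the receptors and of the handling of the carried ligands centred on no difference, with a median log2 fold change of -0.0023 over 26 tested genes, of which 0 were higher and 1 was lower at an unadjusted p below 0.05, near the 4.44% of all genes in that direction. That gene was Rdh16, a retinol dehydrogenase, at 47.0 to 142 CPM in heterozygous and 119 to 229 CPM in wild-type libraries. The organic anion transporter Slco1a4 averaged 16.1 ± 7.30 CPM in heterozygous and 27.4 ± 11.2 CPM in wild-type livers (SD, n = 4 each). The asialoglycoprotein receptor subunit Asgr2 averaged 151 ± 11.3 CPM in heterozygous and 131 ± 10.47 CPM in wild-type livers, and both genes had overlapping groups. Dio1, the deiodinase that activates thyroxine, was at 62.7 to 115 CPM in heterozygous and 50.02 to 93.8 CPM in wild-type libraries. Genes for entry into the secretory pathway had a median log2 fold change of 0.091 over 38 genes with TMM scaling and of -0.0089 with library totals, and 1 of them, Sec61b of the translocon, had an unadjusted p under 0.05 (fold 1.22), where 4.9% of all genes did in that direction. Ssr4, Ssr2 and Sec61g had folds of 1.23, 1.21 and 1.43. The median of this list was 0.31 and 0.21 in H12 and H75 and -0.0092 and -0.12 in H11 and H15, against -0.11 to 0.10 in wild-type libraries. EdgeR called 0 genes of either list over all genes.

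Markers of hepatocytes were abundant in every library, and in bulk tissue fewer cells of a type and less RNA per cell cannot be told apart. The 6 hepatocyte markers, Alb and Ttr among them, summed to 84869 to 95014 CPM in heterozygous and 73089 to 100313 CPM in wild-type libraries. Alb alone was at 67071 to 76694 CPM in heterozygous and 58949 to 82221 CPM in wild-type libraries, so this sum mostly restates Alb. Markers of Kupffer cells summed to 91.5 to 212 CPM in heterozygous and 90.9 to 220 CPM in wild-type libraries, and those of sinusoidal endothelium to 160 to 237 CPM in heterozygous and 143 to 195 CPM in wild-type libraries. Markers of stellate cells summed to 94.2 to 256 CPM in heterozygous and 174 to 226 CPM in wild-type libraries, and those of cholangiocytes to 40.8 to 101 CPM in heterozygous and 34.1 to 87.0 CPM in wild-type libraries. Each of these ranges overlapped between the genotypes. Neutrophil markers, of which 3 of 6 were tested, summed to 1.32 to 7.54 CPM in heterozygous and 0.945 to 2.45 CPM in wild-type libraries. Adipocytes also express Rbp4 and Azgp1. Of 5 adipocyte markers Cfd alone passed the filter and Lep was at 0 in all libraries, and the list summed to 0.642 to 0.900 CPM in heterozygous and 2.62 to 10.3 CPM in wild-type libraries. Cfd had a fold of 0.139 (unadjusted p = 4.76e-05, adjusted p = 0.136, edgeR). Its groups did not overlap, against 2.32% of all genes in that direction. Of 4 pancreas markers Cela1 alone passed the filter, with Cpa1 and Prss1 at 0, and the list summed to 8.06 to 17.2 CPM in heterozygous and 5.55 to 10.96 CPM in wild-type libraries. Cela1 had a fold of 1.72 (unadjusted p = 0.0163, edgeR) and stood, relative to its wild-type mean on the log2 scale, at 0.97 to 1.07 in H11, H12 and H75 and at -0.017 in H15. The 3 kidney markers reached at most 0.150 CPM. The part of the stellate cell, neutrophil, adipocyte and pancreas lists in the values of the 10 genes was not tested.

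In the authors' deposited table of the same comparison, 1 of the 10 genes was marked as significant, Serpina7, with a log2 fold change of -1.13 and an adjusted p of 0.0227. The authors' deposited table gives Alb a log2 fold change of -0.021 and an adjusted p of 0.986, and Ahsg 0.49 and 0.159. Its header gives no direction, and for 99.5% of 13972 genes found in both files its sign matches heterozygous over wild type.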

How the data were processed

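Ribosomal RNA-depleted libraries were made from 4 heterozygous and 4 wild-type livers. The authors deposited a table of estimated counts by gene without normalization, in which 90.0% of values are whole numbers. The submitters' processing notes name SAMtools 1.9, GATK 3.8, Bowtie2 2.2.9 and fastp 0.19.5, and the build mm10. The sources used here do not give the program, annotation and strand setting by which reads were assigned to genes. The table of comparisons deposited by the authors gives, per the file headers, gene length and a fold (ratio) with its log2 value, besides a p-value before and after adjustment. Columns show the genotype by their first letter and no replicate number, so each was 1 unpaired replicate of its group.

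Estimated counts were rounded, filtered with filterByExpr (14261 genes left), scaled with TMM and compared by quasi-likelihood F-tests in edgeR (version 4.0.16, legacy method, R 4.3.3), with Benjamini-Hochberg adjustment over all tested genes and a threshold of 0.05. The standard error is the size of the log2 fold change over the square root of F. Centred profiles used log2 CPM with 0.5 added to each count. TPM used the unrounded counts and the authors' lengths. The 541 unannotated loci have no length there and were set to 0 TPM, so ranks by TPM leave them out. The fit was tested on simulated data. No pair of libraries within a group matched within sampling noise, with chi-square values of 20.2 to 163 per gene. Alternatives were other scalings and filters, DESeq2 1.42.0, limma-voom (limma 3.58.1), a robust and a newer quasi-likelihood fit, and leaving out each library. Fits without H15 in DESeq2 and limma-voom, and counts of the 10 genes at an unadjusted p under 0.05, were added after seeing the data. The 10 genes and all lists were chosen with earlier results of these data known. Named genes are the 10, Eif2s1, Hnf4a, Cebpa and Dbp, up to 4 genes of lowest p per list except marker lists, and the 5 genes most like Alb among those averaging 10 CPM or more. Hrg, Kng1, Kng2, Bche, Serpina6, Ddx3y, Xist, the antisense genes and single cell type markers were named outside the rule, after their values were seen. One further gene of the rule is not reported here. Coordinates are those of GENCODE mouse release M21 (GRCm38, the assembly that mm10 denotes), and promoter sequences are from RefSeq.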

Additional observations from a re-analysis of the deposited data

Results flagged for a closer look

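Among 84 groups of 4 libraries examined, 3 held a library whose gap to the nearest of the others exceeded the 95% limit of Dixon's criterion, where chance gives about 1 in 20. None was a value of the 10 plasma protein genes. Socs3 was at 4.68 CPM in wild-type library W33, against 1.96 to 2.42 CPM in the other wild-type libraries. Foxa3 was at 40.5 CPM in W90, against 24.1 to 25.2 CPM in the other wild-type libraries. Rdh16 was at 229 CPM in W32, against 119 to 135 CPM in the others.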

How the results depend on the processing

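No paired analysis was possible because the columns carry no replicate number. EdgeR called 0 genes with all libraries, 18 without a filter, 1 with the newer method, 1 with the robust fit, 1 at an adjusted p under 0.1, and 0 to 252 when 1 library was left out, 252 without H15 and 2 without W32. DESeq2 called 150. Of the 10 genes, 3 had an unadjusted p under 0.05 with all libraries, against 9.34% of all genes, and 5 in DESeq2 without H15, against 15.7%. Serpina7 had log2 fold changes of -1.13 with DESeq2, -1.49 with DESeq2 without H15 and -1.46 with limma-voom without H15, all past the threshold, and from -1.49 to -0.957 when 1 library was left out, past it without H15. Ahsg passed in 1 setting, DESeq2 without H15. Alb ran from -0.105 to 0.046 when 1 library was left out, positive without H11 (0.0015), W33 (0.0011) or W90 (0.046). Ttr turned to -0.071 with library totals and ran from -0.045 to 0.085 when 1 library was left out, negative without H75 or W76. The other 6 genes kept their direction and stayed short of the threshold in all 22 settings. The difference in summed share, -0.383 percentage points with all libraries, ran from -0.972 (without W76) to 0.052 (without W90) when 1 library was left out, and was 0.15 without Alb in the sum. Library totals moved the median of all genes to -0.079. Serpina7 had the fewest reads of the 10 genes, with 258 in H75. The cause of these shifts was not tested.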
